A study of Mus musculus with 4 samples.

Results

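The genes described here are 52 genes of astrocytes, the star-shaped glial cells of the brain, whose transcripts were measured in the ventral midbrain of male mice with 4 arrays. They were chosen by name, and each was read from the probe sets that carry its symbol alone, taking the brightest one on average where a gene had several. All 52 had such a probe set, among 19938 genes in all, with Ppap2b under its current symbol Plpp3. Of the 52, 50 were bright enough to be tested, among 13587 tested genes. The 2 arrays labelled WT came from wild-type mice and the 2 labelled RKO from mice with a knockout of Rev-erba, the nuclear receptor REV-ERBα encoded by Nr1d1. All mice had a C57BL/6J background and an age of 10 to 15 weeks, had been entrained for more than 10 days to 12 h of light a day, and had then spent 2 days in constant darkness. The labels call the replicates biological. Not given in the sources used here are the clock hour of collection, the deleted part of the gene and how many mice an array stands for.

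Astrocytes take up glutamate and GABA from synapses, move potassium, bicarbonate and water, supply neurons with metabolites and precursors of glutathione, and wrap blood vessels and the pial surface with their endfeet. Their intermediate filaments are built from GFAP and vimentin, and GFAP is known for rising when astrocytes react to injury. REV-ERBα is a repressor of the circadian clock that binds DNA at the hexamer AGGTCA with an A and T rich flank. The comparison of RKO with WT asks which of these transcripts differ in the ventral midbrain without it. In whole tissue, fewer cells of a type and less RNA per cell cannot be told apart.

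Nr1d1 was lower in both RKO arrays, with intensities of 2897 and 3099 on the WT arrays and 1259 and 1229.7 on the RKO arrays. Pearson's r over all probe sets was 0.9934 between the WT arrays, 0.9956 between the RKO arrays and 0.9935 to 0.9952 across groups. RKO replicate 1 stood apart in its median over the tested genes, 539.8 against 558.6 to 558.7 in the other arrays. Over all probe sets its median was instead the highest, 240.1 against 235.7 to 236.8. General neuron markers had a median of -0.01, and 0 of 13 passed limma's test (also 0 at an unadjusted p under 0.05). Th, the tyrosine hydroxylase that defines dopamine neurons of this region, read 2168 and 2248 on the WT arrays and 3620.0 and 3664 on the RKO arrays, and 5 of 11 dopamine neuron markers rose, 0 fell and their median was 0.27.

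Of the 50 tested astrocyte genes, 4 fell in RKO, 0 rose and 46 did not pass at an adjusted p under 0.05 in limma. Over all tested genes 0.964% were called lower and 0.64% higher. The 4 that fell were Gfap, Slc7a11, Aldh1l1 and Vim, by 1.23-fold to 1.42-fold. The members went both ways. At an unadjusted p under 0.05, 11 of the 50 lay lower and 6 higher, where 6.9% and 5.9% of all tested genes did. In 18 of the 50 both RKO arrays lay below both WT arrays, against 24.6% of all tested genes, in 18 both lay above, against 17.2%, and in 14 the groups overlapped. The log2 differences of the members ran from -0.51 to 0.27 with a median of 0.01, beside a median of -0.01 over all tested genes. Their median size without regard to sign was 0.079, against 0.052 over all tested genes. The summed intensity of the 50 genes was 145075 and 142463 on the WT arrays and 145898 and 147511 on the RKO arrays, higher in both RKO arrays than in either WT array. The gap from WT replicate 1 to RKO replicate 1 was narrower than that between the WT arrays. Bright genes weigh most in this sum, such as Cst3 (12139 on WT replicate 1), and the 4 genes that passed weigh little (Gfap 1119 there). The plot of log2 differences by role shows both directions within 7 of the 8 roles.

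**Figure D1:**
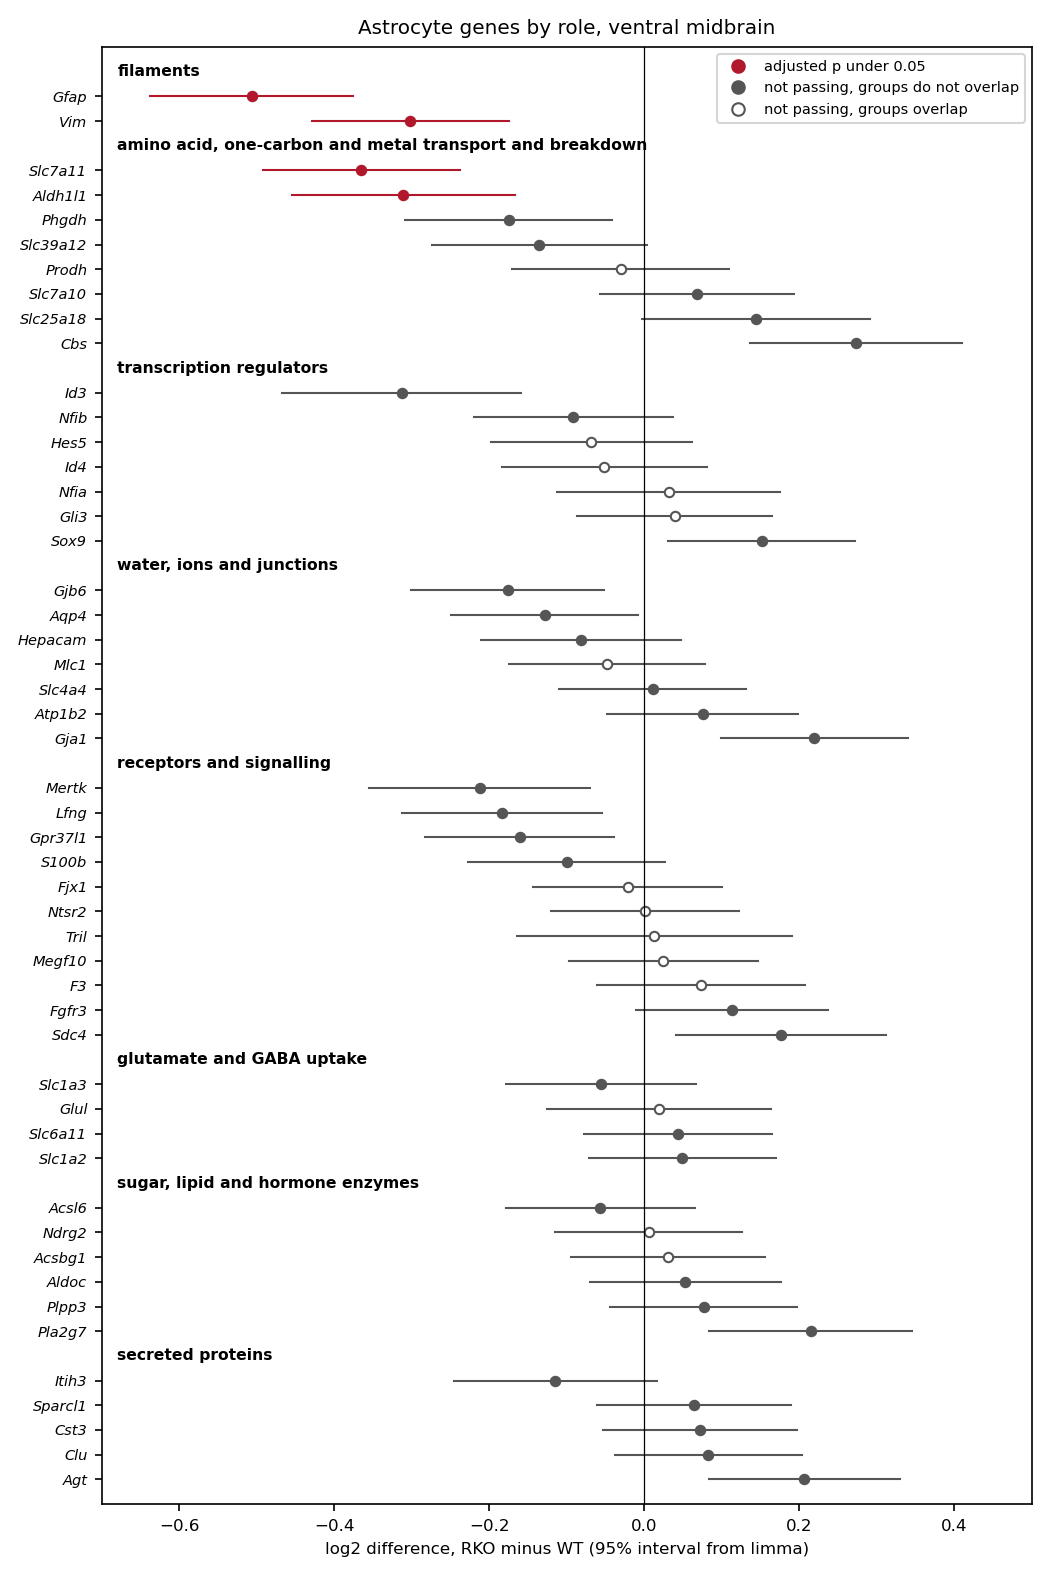
Log2 difference, RKO minus WT, of the 50 tested astrocyte genes, grouped by role, with the 95% interval of limma (2 arrays per group). Red points passed at an adjusted p under 0.05, grey filled points did not pass but their 2 groups did not overlap, and open points had overlapping groups. Gfap lies farthest to the left at -0.51 and Cbs farthest to the right at 0.27.

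The start regions of the 4 genes that fell are shown first, because these are the members that passed. Each run holds the 250 bases before and the 50 after the annotated start, from RefSeq on build GRCm38.p6, read 5′ to 3′ along the gene's own strand. Capitals mark AGGTCA or its reverse complement. The Gfap region lies at chr11:102897151-102897450, minus strand, that of Aldh1l1 at chr6:90550543-90550842, plus strand, that of Slc7a11 at chr3:50443564-50443863, minus strand and that of Vim at chr2:13574061-13574360, plus strand.
Gfap: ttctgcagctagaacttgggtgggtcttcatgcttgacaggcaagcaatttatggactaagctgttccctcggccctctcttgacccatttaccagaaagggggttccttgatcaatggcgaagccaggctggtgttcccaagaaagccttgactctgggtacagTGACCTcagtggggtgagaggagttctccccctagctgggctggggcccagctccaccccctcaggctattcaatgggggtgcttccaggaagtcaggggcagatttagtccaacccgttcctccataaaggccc
Aldh1l1: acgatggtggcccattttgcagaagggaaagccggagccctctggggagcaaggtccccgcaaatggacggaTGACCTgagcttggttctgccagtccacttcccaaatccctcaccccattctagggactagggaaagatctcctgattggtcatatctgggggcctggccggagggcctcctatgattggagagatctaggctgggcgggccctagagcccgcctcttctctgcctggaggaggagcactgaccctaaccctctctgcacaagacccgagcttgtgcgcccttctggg
Slc7a11: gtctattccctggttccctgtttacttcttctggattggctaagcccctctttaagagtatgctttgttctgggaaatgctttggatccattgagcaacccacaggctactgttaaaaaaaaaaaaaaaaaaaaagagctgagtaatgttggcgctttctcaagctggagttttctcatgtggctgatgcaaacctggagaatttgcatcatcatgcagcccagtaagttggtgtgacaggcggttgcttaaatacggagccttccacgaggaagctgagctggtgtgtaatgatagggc
Vim: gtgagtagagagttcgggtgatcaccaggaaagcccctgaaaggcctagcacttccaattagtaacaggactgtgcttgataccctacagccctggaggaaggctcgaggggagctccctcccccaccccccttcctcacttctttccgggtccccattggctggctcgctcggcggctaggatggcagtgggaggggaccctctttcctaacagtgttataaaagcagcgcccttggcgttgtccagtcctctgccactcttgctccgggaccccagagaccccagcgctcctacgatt
The hexamer stands on the opposite strand in Gfap, beginning 85 bases before the start, and in Aldh1l1, beginning 178 bases before it. The windows of Slc7a11 and Vim do not hold these letters. Start regions were found for 44 of the 52 members, 51 regions in all, and 10 of the 51 (19.6%) held AGGTCA on either strand, against 16.3% of all 32851 regions of this length. The 10 belong to Gfap, Aldh1l1 and Acsl6, whose RKO arrays lay below WT, to Cst3, Sdc4, Slc1a2, Slc4a4 and Slc6a11, whose RKO arrays lay above, and to Glul and Ndrg2, whose groups overlapped. The E-box CACGTG, the element of the activators BMAL1 and CLOCK, was found in the regions of Cbs, Lfng and Ntsr2, 5.88% of the members' regions against 7.15% of all. The search took the hexamer AGGTCA alone and did not ask for the A and T rich flank. These matches describe the letters of the window and are not measured binding.

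Both tested filament genes fell. Gfap encodes the main filament protein of mature astrocytes, and had intensities of 1119 and 1159 on the WT arrays and 776 and 828 on the RKO arrays. The gap between its groups was much wider than that between replicates, and it fell 1.42-fold (-0.51 on the log2 scale, SE 0.0591, adjusted p = 0.00136). Vim encodes vimentin, which astrocytes share with endothelium, ependyma and fibroblasts, and stood at 2019 and 1987 on the WT arrays and 1578 and 1673 on the RKO arrays, which is 1.23-fold lower (-0.30 on the log2 scale, SE 0.0577, adjusted p = 0.0266). In both genes RKO replicate 1 was the lower of the RKO arrays. Nes, which encodes the filament protein nestin of neural progenitors, lay below the brightness filter at 130.0 and 113 on the WT arrays and 123 and 131 on the RKO arrays, with overlapping groups. Of the 8 genes of amino acid, one-carbon and metal handling, 2 fell and 6 did not pass. Slc7a11 encodes xCT, which takes up cystine in exchange for glutamate and is also found in the meninges. It read 1183 and 1119 on the WT arrays and 882 and 904 on the RKO arrays, which is 1.29-fold lower (-0.37 on the log2 scale, SE 0.0577, adjusted p = 0.00884). Aldh1l1, a folate enzyme used as a marker of astrocytes throughout the brain, read 877 and 859 on the WT arrays and 662 and 739.7 on the RKO arrays (-0.31 on the log2 scale, SE 0.0650, adjusted p = 0.0416). Its RKO arrays differed from each other more than its WT arrays did, and both stayed below WT. The fall was 1.24-fold.

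Most markers of the leptomeninges, the pial and arachnoid sheets that the astrocyte endfeet adjoin, were lower together with these 4 genes. Of 18 tested leptomeningeal genes 11 fell, 0 rose and 7 did not pass in limma, with a median of -0.36. At an unadjusted p under 0.05, 1 was higher and 14 lower. Col1a1 (0.13), Col1a2 (0.07), Col3a1 (0.08) and Igfbp2 (0.14) went the other way, with both RKO arrays above both WT arrays. The summed intensity of the 18 genes was 8429 and 8688 on the WT arrays and 6811 and 6794 on the RKO arrays, lower on both RKO arrays. Of the 21 listed markers, Lum, Crabp2 and Asgr1 lay below the filter. No probe set of any gene was at 0 (lowest value 6.513), so the lack of zeros cannot show whether a tissue was present. All 11 tested oligodendrocyte genes had a log2 difference below 0 (median -0.11, 1 passing, Opalin), against 7715 of all 13587 tested genes. The 11 genes had summed intensities of 41903 and 40868 on the WT arrays and 38463 and 38692 on the RKO arrays. Of 14 endothelial and pericyte genes 0 passed in limma (1 higher and 3 lower at an unadjusted p under 0.05), with a median of -0.09 and sums of 14896 and 15073 on the WT arrays and 14145 and 14772 on the RKO arrays. Thalamus genes had 2 of 13 lower (Prkcd and Rora), 0 higher and a median of -0.15. Their sums were 29009 and 29198 on the WT arrays and 26298 and 26773 on the RKO arrays. At an unadjusted p under 0.05 in limma, 1 was higher and 7 lower. The higher gene was Rgs16, with both RKO arrays above WT (0.31, adjusted p = 0.0567). Tcf7l2 (0.003), Zic1 (-0.01) and Cplx1 (-0.002) stood near 0. Of 11 microglia genes and 9 oligodendrocyte precursor genes 0 passed in limma (2 and 1 lower, 0 higher, at that p), with medians of -0.07 and -0.04. Choroid plexus and ependyma genes had 0 of 10 passing (1 higher and 1 lower at that p) and a median of 0.08. The part of leptomeningeal, oligodendrocyte, vascular or thalamic tissue in the falls of Gfap, Vim, Slc7a11 and Aldh1l1 was not tested. These marker lists, like those of neurons, were chosen with earlier results of these data known. Their counts are therefore no independent evidence.

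**Figure D2:**
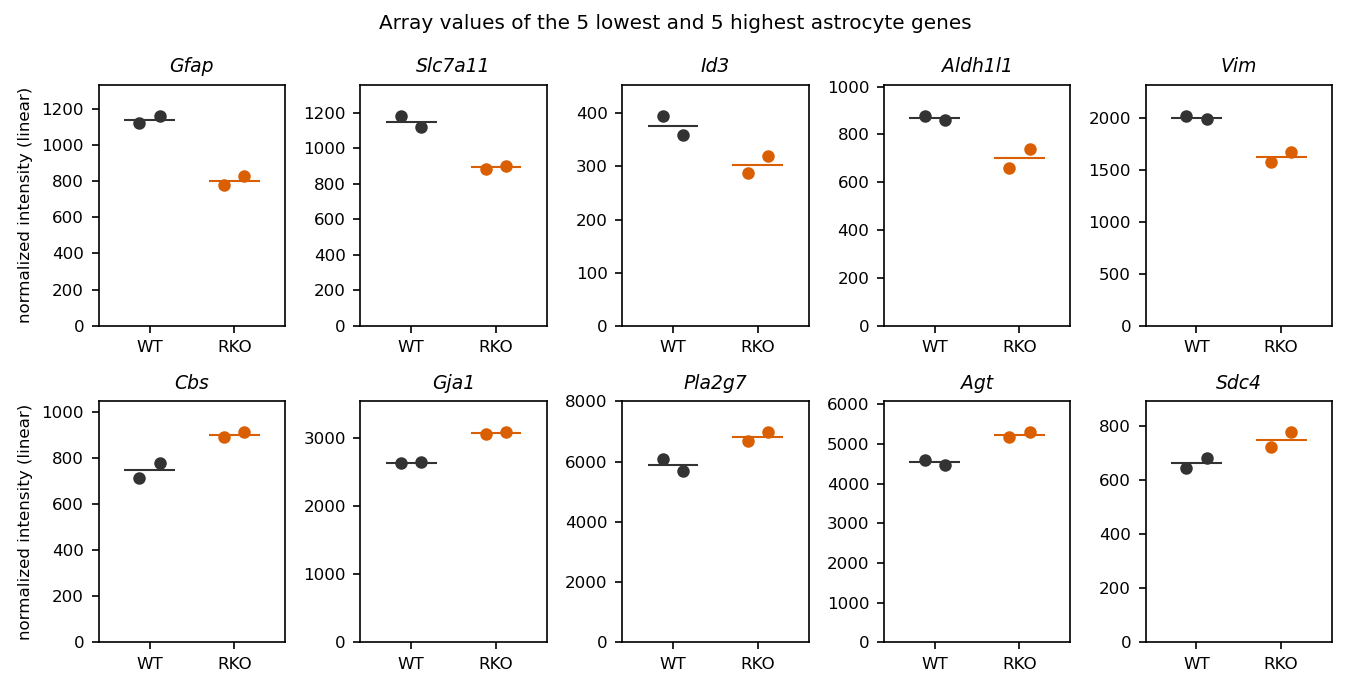
Normalized linear intensity on each array (points) and group mean (lines) of the 5 named astrocyte genes with the lowest log2 difference, upper row, and the 5 with the highest, lower row. The vertical axes start at 0 and differ between genes. In each of the 10 genes both RKO points lie on 1 side of both WT points, but only Gfap, Slc7a11, Aldh1l1 and Vim passed.

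The members farthest above 0 did not pass over all genes in the fit as reported, though some passed under other settings given below. Cbs, which encodes cystathionine β-synthase, the first enzyme from homocysteine towards cysteine, stood highest, at 713 and 781 on the WT arrays and 891 and 911 on the RKO arrays (0.27 on the log2 scale, SE 0.0618, adjusted p = 0.0595). The start region of Cbs, at chr17:31637156-31637455, minus strand, is shown with its E-box in capitals because it belongs to the member with the highest difference.
Cbs: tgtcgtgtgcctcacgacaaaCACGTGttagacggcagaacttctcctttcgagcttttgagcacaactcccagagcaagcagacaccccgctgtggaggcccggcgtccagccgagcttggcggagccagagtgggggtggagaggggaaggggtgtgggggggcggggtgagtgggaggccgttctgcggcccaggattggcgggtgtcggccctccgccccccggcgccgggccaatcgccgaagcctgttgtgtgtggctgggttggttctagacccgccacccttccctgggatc
The groups of Cbs did not overlap, and the 95% interval of its difference ran from 0.14 to 0.41. Phgdh, the first enzyme of serine synthesis, which supplies the other substrate of Cbs, lay on the other side of 0, at 518 and 503 on the WT arrays and 471 and 435 on the RKO arrays (-0.17, adjusted p = 0.238). A further probe set carries Phgdh together with Gm6756 and was not used. Slc25a18, a mitochondrial glutamate carrier, read 1587 and 1729 on the WT arrays and 1751 and 1913 on the RKO arrays (0.14, adjusted p = 0.402), with the lower RKO array close to the higher WT array. Slc39a12, a zinc transporter, read 1025 and 991 on the WT arrays and 875 and 962 on the RKO arrays (-0.14, adjusted p = 0.402). Slc7a10, which carries serine and glycine, stood at 0.07 and Prodh, the first enzyme of proline breakdown, at -0.03, and neither passed.

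Channels, pumps and junction proteins were divided, and 0 of 7 passed in limma (1 higher and 2 lower at an unadjusted p under 0.05). The 2 connexins of astrocyte gap junctions lay on opposite sides of WT. Gja1, the main connexin of astrocytes, read 2637 and 2643 on the WT arrays and 3063 and 3083 on the RKO arrays (0.22 on the log2 scale, SE 0.0545, adjusted p = 0.0848). Gjb6, the other connexin, found mostly in mature astrocytes, read 785 and 772 on the WT arrays and 674 and 704 on the RKO arrays (-0.18 on the log2 scale, SE 0.0564, adjusted p = 0.193). The replicates of Gja1 lay close together, and neither gene passed over all genes. The difference of Gja1 minus that of Gjb6 was 0.40 on the log2 scale, a description of a pair picked for its opposite signs. Aqp4, the water channel of the endfeet, stood at 2406 and 2445 on the WT arrays and 2219 and 2218 on the RKO arrays (-0.13, adjusted p = 0.350). Atp1b2, a β subunit of the sodium pump, read 6318 and 6389 on the WT arrays and 6572 and 6819.7 on the RKO arrays (0.08, adjusted p = 0.654). Its 95% interval reached from -0.05 to 0.20. The bicarbonate cotransporter Slc4a4 (0.01) and the endfoot membrane proteins Mlc1 (-0.05) and Hepacam (-0.08), which bind each other, did not pass either.

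Uptake of transmitter had the smallest median size of difference among the 8 roles, 0.046 on the log2 scale. None of its 4 genes passed in limma, at adjusted or unadjusted p. Slc1a2, the glutamate transporter GLT-1, read 6156 and 6099.9 on the WT arrays and 6289.8 and 6388 on the RKO arrays (0.05, 95% interval -0.07 to 0.17). Slc1a3, the transporter GLAST, read 2273 and 2283 on the WT arrays and 2156 and 2226 on the RKO arrays (-0.06, 95% interval -0.18 to 0.07). Slc6a11, the GABA transporter GAT-3, read 8667 and 8722 on the WT arrays and 9020.4 and 8899 on the RKO arrays (0.04). Differences beyond 0.18 on the log2 scale in either direction lie outside the intervals of these 3 genes. Glul, glutamine synthetase, stood at 7963 and 7292 on the WT arrays and 8014 and 7438 on the RKO arrays, with overlapping groups and a wider gap between replicates than between groups (0.02). Its second probe set gave 0.05.

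Of the 6 tested sugar, lipid and hormone enzymes and their like, 0 passed in limma (1 higher at an unadjusted p under 0.05). Above 0 lay 5872 of all 13587 tested genes and 5 of these 6. Pla2g7, a secreted phospholipase that breaks down platelet-activating factor, stood highest among them, at 6076 and 5698 on the WT arrays and 6691 and 6965 on the RKO arrays (0.21 on the log2 scale, SE 0.0594, adjusted p = 0.124). Plpp3, a lipid phosphate phosphatase, read 4026 and 4100.3 on the WT arrays and 4278 and 4289 on the RKO arrays (0.08, adjusted p = 0.639). Both RKO arrays lay above both WT arrays in these genes and in Aldoc, the brain aldolase (0.05). Ndrg2 (0.01) and the acyl-CoA synthetase Acsbg1 (0.03) had overlapping groups, and Acsl6 of the same family stood at -0.06. Dio3, the deiodinase that inactivates thyroid hormone, lay below the filter at 91.9 and 107 on the WT arrays and 105 and 114 on the RKO arrays, and its groups overlapped.

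Of the 5 secreted proteins 4 lay above 0, against 5872 of all 13587 tested genes. None of the 5 passed in limma (1 higher and 0 lower at an unadjusted p under 0.05). Agt, the angiotensinogen that astrocytes make in the brain, read 4611 and 4471 on the WT arrays and 5185 and 5294 on the RKO arrays (0.21 on the log2 scale, SE 0.0557, adjusted p = 0.115). Clu, the chaperone clusterin, read 4114 and 4114 on the WT arrays and 4392 and 4319.6 on the RKO arrays (0.08, adjusted p = 0.601), and Cst3, the protease inhibitor cystatin C, 12139 and 11548 on the WT arrays and 12438 and 12439 on the RKO arrays (0.07, adjusted p = 0.694). The synapse-promoting matrix protein Sparcl1 stood at 0.06 and Itih3, which binds hyaluronan, at -0.11, the 1 secreted protein whose RKO arrays lay below WT.

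Transcription regulators were split, and 0 of 7 passed in limma (1 higher and 1 lower at an unadjusted p under 0.05). Id3, an inhibitor of bHLH factors and a target of BMP signalling, read 395 and 359 on the WT arrays and 288 and 319 on the RKO arrays (-0.31 on the log2 scale, SE 0.0699, adjusted p = 0.0559). Its groups did not overlap, and it lay just outside the threshold. Sox9, a regulator of glial fate that marks nearly all astrocytes, read 765 and 768 on the WT arrays and 844 and 858 on the RKO arrays (0.15 on the log2 scale, SE 0.0547, adjusted p = 0.261). Its replicates lay within a narrow range. The related Id4 (-0.05), the Notch target Hes5 (-0.07), the Hedgehog effector Gli3 (0.04) and the gliogenic factor Nfia (0.03) had overlapping groups, while Nfib stood at -0.09. Second probe sets of Nfia (0.06) and Nfib (-0.04) had the same sign as the ones used.

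Of 11 receptors and signalling proteins 0 passed in limma, with 1 higher and 3 lower at an unadjusted p under 0.05. Mertk, a receptor with which astrocytes engulf synapses and debris, read 662 and 659.9 on the WT arrays and 539.8 and 603 on the RKO arrays (-0.21, adjusted p = 0.163). Megf10, the other engulfment receptor of the list, had overlapping groups at 0.02. Lfng, a glycosyltransferase that modifies Notch, read 870.3 and 833 on the WT arrays and 729.9 and 770.4 on the RKO arrays (-0.18, adjusted p = 0.193). Gpr37l1, an orphan receptor of astrocytes, read 4234 and 4129 on the WT arrays and 3724 and 3755 on the RKO arrays (-0.16, adjusted p = 0.232). These 3 lay below WT on both RKO arrays. On the other side, Sdc4, a heparan sulfate proteoglycan of the cell surface, read 644 and 681 on the WT arrays and 722 and 775 on the RKO arrays (0.18, adjusted p = 0.241). Fgfr3, a receptor of fibroblast growth factors, read 1503 and 1501 on the WT arrays and 1589.8 and 1659 on the RKO arrays (0.11, adjusted p = 0.450). S100b, a calcium-binding protein also found in oligodendrocytes, stood at -0.10. The groups of the neurotensin receptor Ntsr2 (8.10e-04, nearest to 0 of the tested members), of Fjx1 (-0.02), of Tril, an accessory protein of toll-like receptors (0.01), and of the tissue factor F3 (0.07) overlapped.

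Genes beyond the 52 were split as well. In a list of 39 other astrocyte and radial glia genes, 38 were tested, of which 6 rose and 3 fell, and their median was -0.04. Those that rose were Ednrb, the endothelin receptor B (0.93), Fabp7, a fatty acid-binding protein of radial glia and astrocytes (0.90), Etnppl (0.89), Chrdl1 (0.58), the potassium channel Kcnj10 (0.29) and the protease Htra1 (0.26). Those that fell were the cholesterol-esterifying enzyme Lcat (-0.70), the phagocytosis adaptor Mfge8 (-0.50) and Fam107a (-0.48). Several were known to differ in these arrays when the list was made, so its counts are no independent evidence. None of the 11 tested genes of reactive astrocytes passed in limma (1 higher and 2 lower at an unadjusted p under 0.05). Their median was -0.01, with Aspg highest (0.18) and Serpina3n lowest (-0.20), and Lcn2, Steap4, Timp1 and Cxcl10 lay below the filter. Of 27 tested genes of Notch, Hedgehog and BMP signalling, Id2, a relative of Id3, rose (0.32), Hey2, a Notch target, fell (-0.31) and 25 did not pass.

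**Figure D3:**
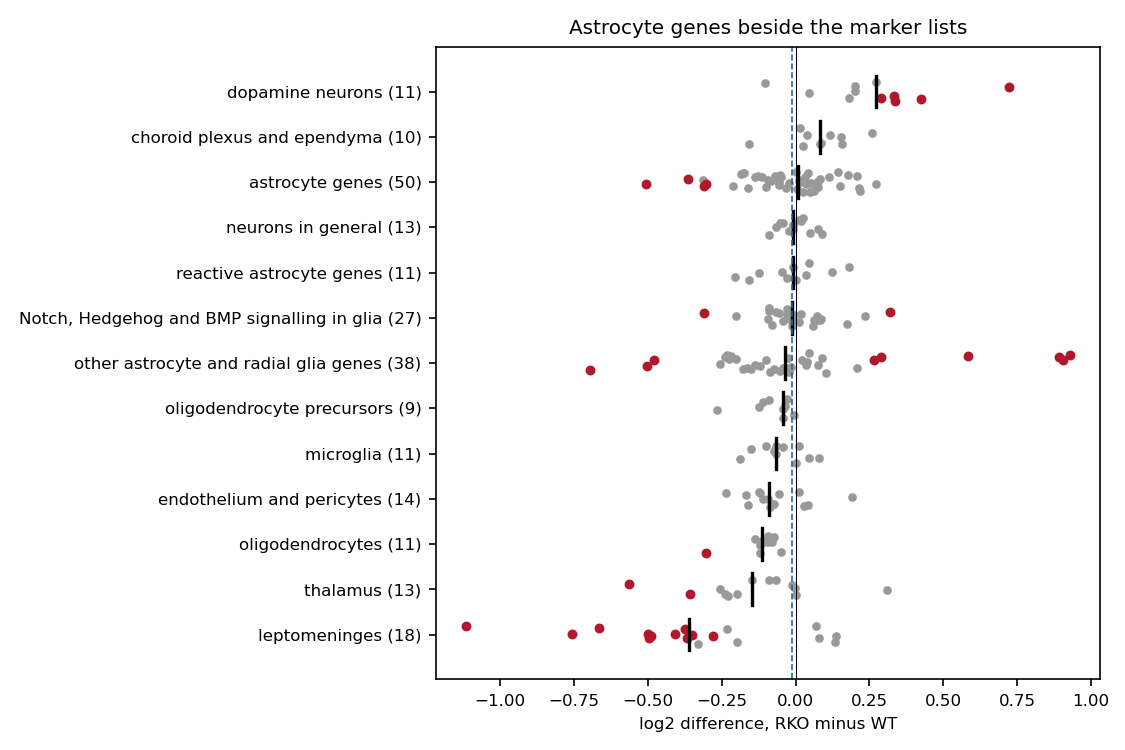
Log2 difference, RKO minus WT, of single genes (points) in the astrocyte set and in each marker list, with the number of tested genes in parentheses. Red points passed at an adjusted p under 0.05, black bars are list medians, and the dashed line is the median of all tested genes (-0.01). The astrocyte genes straddle 0, the leptomeningeal genes lie mostly below it and the dopamine neuron markers mostly above it.

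Which members passed varied with the brightness filter and with the arrays used. Gfap was called whichever array was left out. Slc7a11 lost its call when either RKO array was left out, Aldh1l1 without WT replicate 1 or RKO replicate 1, and Vim without any array but WT replicate 2. With no filter on dim probe sets 0 of 52 members passed in limma (6 higher and 10 lower at an unadjusted p under 0.05), and Gfap had an adjusted p of 0.0580. With a stricter filter, at the 60th percentile, Cbs, Gja1, Pla2g7 and Agt passed as higher beside the same 4 falls. Of the 9453 genes tested there, 1.18% were called higher and 1.95% lower. Id3 lay below this filter, which left 48 members tested. Median centring of the arrays gave 1 member higher (Cbs) and 5 lower (Id3 beside the 4). Over all tested genes it called 1.41% higher and 1.94% lower. Aldh1l1 did not pass after quantile normalization (adjusted p = 0.0717). With an intensity trend in limma, Cbs, Gja1, Pla2g7 and Agt passed as higher. Gpr37l1, Id3 and Mertk then passed as lower beside the 4 falls. The trend called 1.40% of all tested genes higher and 2.27% lower.

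**Figure D4:**
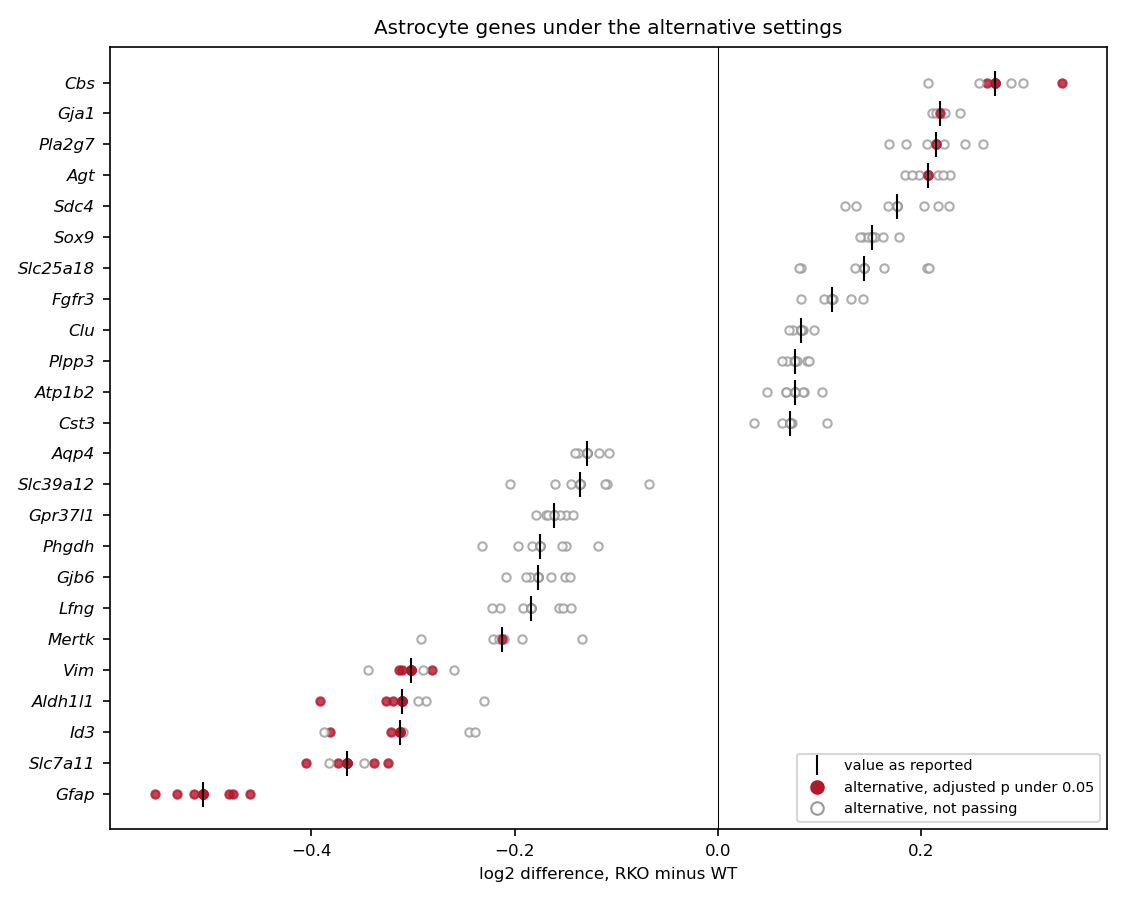
Log2 difference, RKO minus WT, of 24 astrocyte genes as reported (black bars) and under each alternative setting (points). Red points passed at an adjusted p under 0.05 and open points did not. These genes were chosen for groups that do not overlap, so leaving out an array cannot move a point across 0, and the filter, trend and block settings leave the difference itself as it was. Gfap ranges from -0.55 to -0.46.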

How the data were processed

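Gene expression was measured on 4 Affymetrix arrays of mouse ventral midbrain (2 WT, 2 RKO). The authors deposited 1 normalized intensity per probe set and array, 35556 probe sets, on a linear scale as judged from the values. The submitters' processing notes name GCOS and RMA, with no version or setting. RMA as usually run makes arrays alike in distribution and so removes shifts common to most genes. Here intensities were transformed to log2. Of the probe sets 21789 carried 1 symbol in the platform annotation, 1621 several and 12146 none; only the first kind was used. Genes with a mean under the 40th percentile of all probe sets (intensity 167) were left out.

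RKO and WT were compared with limma 3.58.1 (R 4.3.3; functions lmFit and eBayes), without covariates, with Benjamini-Hochberg adjustment over 13587 genes and a two-sided threshold of 0.05. The script was tested on simulated data. An exact permutation test of 2 against 2 arrays cannot go below p = 0.333. The number of arrays limits the precision, and p-values measure the spread between these arrays. The function eBayes draws the spread of each gene towards a value shared by all tested genes (2 residual and 8.73 prior degrees of freedom). An SE or p-value is therefore not the replicate spread of that gene alone. No pair of replicate arrays shared more than 5 identical values. Members, roles and marker lists were chosen with earlier results of these data known. Array values are given for members that passed and, in each direction, for the 12 with the largest difference among those whose groups did not overlap; other members are given by their difference, with array values for 6 of them (Nes, Dio3, Glul, Slc1a2, Slc1a3, Slc6a11) chosen after the values were seen. RefSeq tables of GRCm38.p6 gave current symbols and start regions. Alternatives were another filter, another normalization, an intensity trend, the mean of a gene's probe sets, a replicate block and leaving out each array.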

Additional observations from a re-analysis of the deposited data

How the results depend on the processing

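The number of changed genes was 218, and 31 with no filter, 455 with median centring, 499 with an intensity trend in eBayes, and 73 to 293 when 1 array was left out (73 without RKO replicate 1, 99 without RKO replicate 2). The number of changed astrocyte genes was 4, and 0 with no filter, 8 with the 60th percentile filter, 11 with the trend (4 higher, 7 lower), and 1 to 6 when 1 array was left out (1 without RKO replicate 1). The cause of these shifts was not tested. Of 287 values of the 24 named members under the alternatives 251 kept their side of the threshold, 12 lost a call and 24 gained one. Of the 24 members 20 were not called in the fit as reported and had no call to lose. The 12 lost calls fall on Gfap, Slc7a11, Aldh1l1 and Vim alone. The sign of the 24 members is no sign of stability. They were chosen for groups that do not overlap, and most settings leave the difference itself unaltered. Replicate numbers only name the arrays: the differences between replicates 1 and 2 correlated at -0.114 between WT and RKO. With the replicate block 259 genes and 6 astrocyte genes passed, Cbs as higher and Id3 as lower beside the 4. The crossed replicate block, chosen after seeing the data, gave 696 and 10. Nes and Dio3 were too dim to be tested, and folds of dim genes are uncertain.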
